A study of Drosophila melanogaster with 18 samples.

Results

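The genes chinmo, br (broad), Eip93F, EcR, usp, Eip74EF and Eip75B make up a set of 7 regulators through which the steroid hormone ecdysone and its timing programme act in flies. They were listed by name, with earlier results of these data known. The DNA counted for each was its span in the RefSeq gene table (assembly Release 6, the dm6 build) with 1 kb on both sides, called its window here. These are 7 of 14206 gene windows. They hold 2311 of the 767321 counted GATC ends, an end being a side of a GATC site, the sequence that the methyltransferase Dam marks.

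Targeted DamID was used on eye-antennal discs, the larval epithelia that form the eye and antenna, from early in the third larval instar. In this method Dam, fused to a chromatin protein or alone, marks DNA close to where it reaches, and the marked DNA is amplified and sequenced. Every library came from larvae with Eyeless-Gal4, a driver active in the eye-antennal disc, and Gal80ts, a temperature-sensitive repressor of Gal4. The transgenes were UAS-Dam-Sd, UAS-Yki-Dam and UAS-Dam-Jra in the groups Dam-Sd, Yki-Dam and Dam-Jra, and UAS-Dam in Dam Set 1, Dam Set 2 and Dam Set 3, with 3 libraries in each group. Eggs were laid at 25 °C, animals stayed at 18 °C for 4 days with the transgene shut off, and 29 °C for 24 hours before dissection let it be expressed. Scalloped (Sd) is the TEAD-family DNA-binding partner of Yorkie (Yki), a coactivator held back by Hippo signalling, and Jra is fly Jun, which acts in AP-1 under the JNK kinase. The sources used here give neither the sex nor the origin of replicates (crosses, animals or pools), and p-values may measure technical spread. The values count marked DNA and not RNA, and they say nothing of whether a gene was expressed.

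Ecdysone binds a heterodimer of the nuclear receptors EcR and Ultraspiracle (usp). The occupied receptor switches on early genes, among them br, Eip74EF and Eip75B, which encode transcription factors that pass the signal on. Larval, pupal and adult identity of insect epithelia is tied to a succession of such factors: chinmo for the larval state, br for the pupal state and Eip93F for the adult state.

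Libraries held 21.4 to 41 M counted reads. In Dam-Sd, replicate 3 stood apart: its scaling factor (trimmed mean of M values, TMM) was 0.96, against 0.56 and 0.66 in replicates 1 and 2, while the other fusions spanned 0.70 to 0.84 and the Dam libraries 1.11 to 1.62. Results that rest on that library are given with and without it. The windows of the 10 marker genes of the eye-antennal disc listed for this check, such as ey, eya and Dll, were called higher in 10, 9 and 10 cases in Dam-Sd, Yki-Dam and Dam-Jra, and lower in none, where 26.1%, 22% and 32.6% of all windows were called higher and 30.3%, 20.3% and 36.3% lower. Of 5 markers each, those called higher numbered 1, 2 and 1 of the haemocyte, 0, 1 and 1 of the fat body, 1, 1 and 1 of the neuronal, 2, 1 and 3 of the glial, 2, 1 and 1 of the muscle and 0, 1 and 0 of the salivary gland markers. Those called lower numbered 3, 2 and 3 of the haemocyte, 4, 2 and 4 of the fat body, 1, 3 and 3 of the neuronal, 2, 1 and 2 of the glial, 1, 0 and 1 of the muscle and 0, 0 and 3 of the salivary gland markers. These are reads near genes, so they do not show which cells were sampled, and their part in the results was not tested. Reads carried no molecular identifiers, so counting precision can be overstated.

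The windows of chinmo, br, EcR, Eip75B and Eip74EF, 5 of the 7, drew more reads in every fusion than in its Dam libraries, by 2.30-fold to 6.28-fold. The other two did not: usp, the partner of EcR, and Eip93F, the adult-state factor, stayed near or under the Dam level. In Dam-Sd against Dam Set 1, 5 windows were called higher and 1 lower, where 26.1% of all 14090 windows tested were called higher and 30.3% lower. In Yki-Dam against Dam Set 2 the members were 5 higher and 1 lower, against 22% and 20.3% of all windows. In Dam-Jra against the mean of the 3 Dam sets they were again 5 higher and 1 lower, against 32.6% and 36.3%. A call is an adjusted p below 0.05 in the quasi-likelihood test of edgeR, with p adjusted over all windows by Benjamini and Hochberg. The median log2 fold change of the members was 2.18 in Dam-Sd, 1.58 in Yki-Dam, and 1.35 for Dam-Jra, beside −0.17, −0.13 and −0.10 over all windows. The scaling sets the balance of calls over all windows: in Yki-Dam 51.9% of calls were higher as reported and 37.4% with another TMM reference library. With library sizes alone and no TMM, 11%, 10.8% and 15.0% of calls were higher in Dam-Sd, Yki-Dam and Dam-Jra, against 46.3%, 51.9% and 47.3% with TMM. The median of all windows then moved to −1.24, −0.94 and −1.03. The same 5 windows were called higher and usp and Eip93F lower in all 3 fusions under that scaling, with usp in Dam-Jra (−0.67) and Eip93F in Dam-Sd (−1.01) of opposite sign to the TMM values. The 6 members other than usp have spans of 50 kb or more, and of the 313 windows of that length 56.2%, 48.2% and 52.1% were called higher in Dam-Sd, Yki-Dam and Dam-Jra, and 7.03%, 20.4% and 38% lower.

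**Figure D1:**
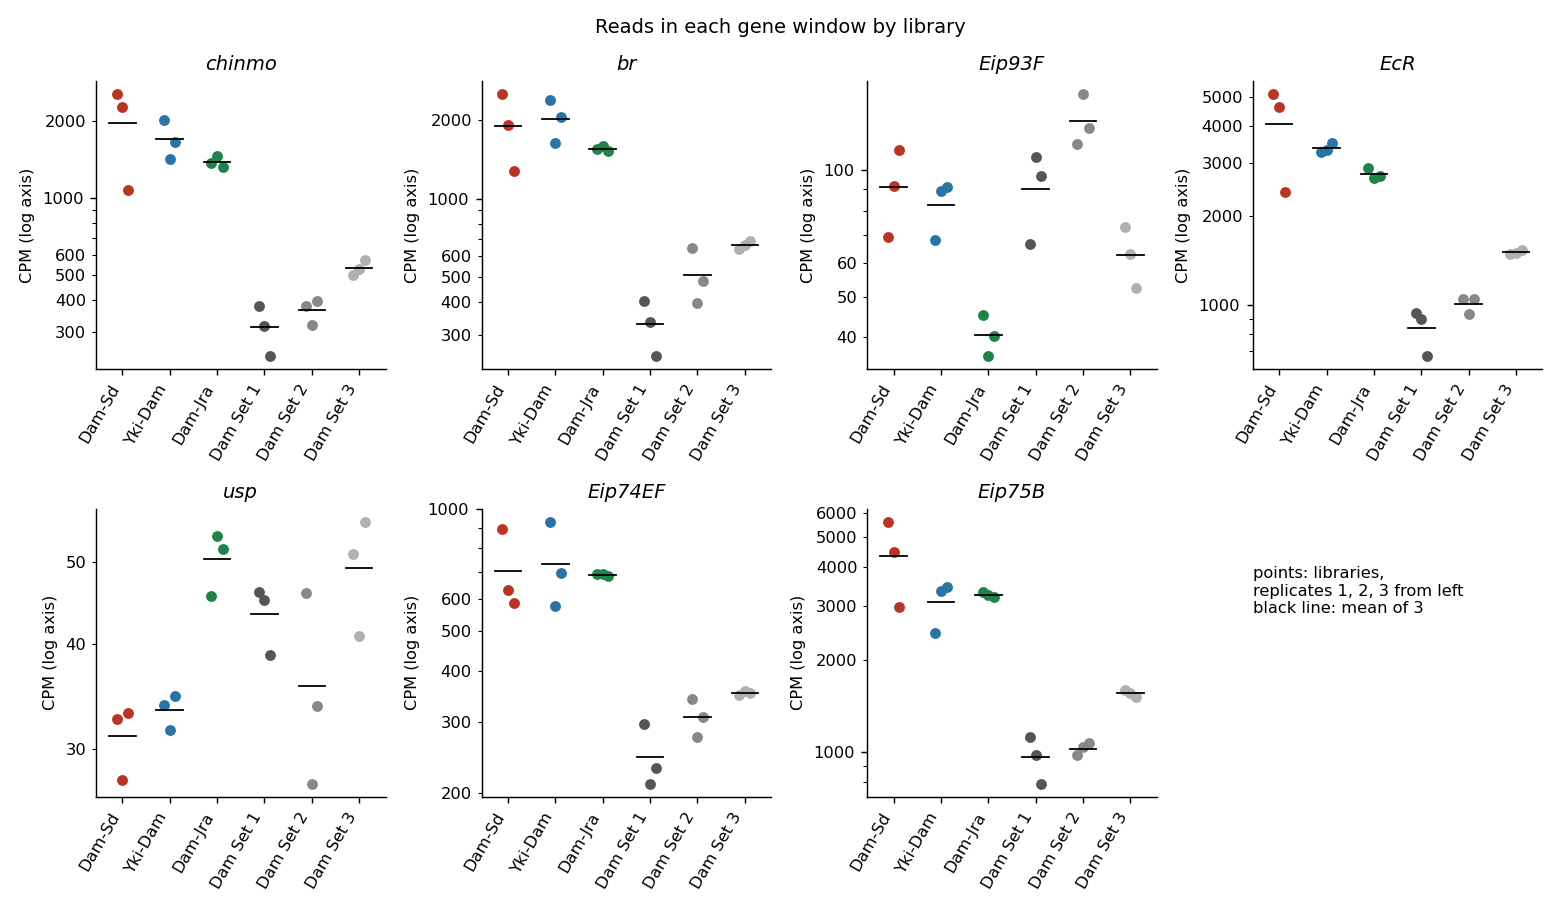
Reads per gene window in CPM (read counts scaled to library size, log axis) for the 18 libraries, in groups from Dam-Sd to Dam Set 3, with points for replicates 1, 2 and 3 from left and a black line for their mean. In the chinmo, br, EcR, Eip74EF and Eip75B panels every fusion library lies above all 9 Dam libraries, while in the usp panel fusion and Dam libraries mix. In the Eip93F panel Dam-Sd and Yki-Dam libraries lie within the range of the 9 Dam libraries, and every Dam-Jra library lies under all 9.

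**Figure D2:**
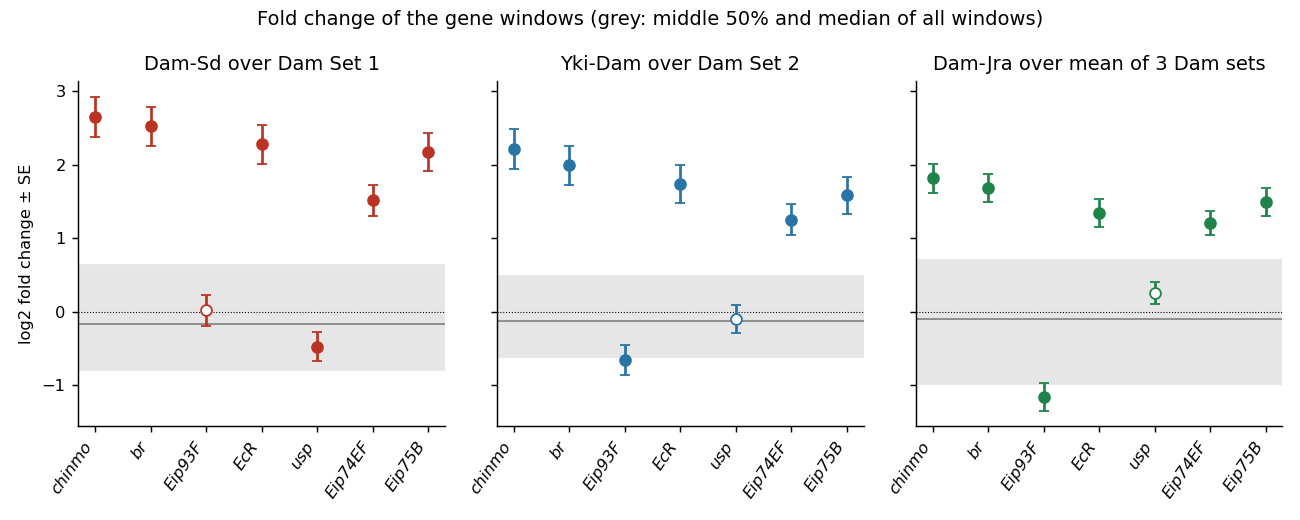
Log2 fold change of each window with its standard error, for Dam-Sd over Dam Set 1, Yki-Dam over Dam Set 2 and Dam-Jra over the mean of the 3 Dam sets; filled points passed the test, the grey band holds the middle 50% of all windows and the grey line their median. The windows of chinmo, br, EcR, Eip75B and Eip74EF lie between 1.20 and 2.65, and usp and Eip93F between −1.16 and 0.25.

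The receptor gene EcR (chromosome arm 2R, 6087873 to 6169087) gave the most reads per length of the set. Its window held 5123, 4648 and 2407 CPM in Dam-Sd, against 939, 897 and 673 CPM in Dam Set 1. CPM values here are after TMM scaling. It held 3273, 3320 and 3508 CPM in Yki-Dam, against 1051, 934 and 1049 CPM in Dam Set 2. In Dam-Jra it held 2890, 2666 and 2714 CPM, against 1487, 1502 and 1532 CPM in Dam Set 3. All fusion libraries were above all Dam libraries, with Dam-Sd replicate 3 the lowest of the fusions and Dam Set 3 the highest of the controls. The fold was 4.85 in Dam-Sd (log2 2.28 ± 0.26 SE, adjusted p = 8.43e-07), 3.33 in Yki-Dam (1.74 ± 0.26, 3.58e-05) and 2.54 in Dam-Jra (1.35 ± 0.19, 4.49e-06) by edgeR. This Dam-Jra fold, like those of the genes below, is over the mean of the 3 Dam sets. Over Dam Set 3 alone the EcR fold was 1.83. Without Dam-Sd replicate 3 the Dam-Sd log2 fold change was 2.55.

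The reads of EcR lay in the upper part of its span and not at its ends. The 1 kb bin at 60 to 61 kb from the low-coordinate end of the span held 1612 ± 440 CPM in Dam-Sd, 1129 ± 72.5 in Yki-Dam, and 620 ± 13.3 for Dam-Jra (mean ± SD, n = 3), against 173 ± 71.3, 320 ± 86.3 and 412 ± 8.66 CPM in Dam Sets 1, 2 and 3. Bins and ends were scaled on the reads at tested ends, so their CPM differ slightly from window CPM. No other bin of the gene came near it in Dam-Sd. A single end inside it, at 2R 6148002 on the minus strand, held 22.2, 27.8 and 20.0 CPM in Dam-Sd, against 0.56 to 1.41 CPM in Dam Set 1. This was the largest called rise of an EcR end in Dam-Sd, 23.8-fold (log2 4.58 ± 0.39 SE, adjusted p = 2.93e-06, edgeR over all 394539 ends). For Yki-Dam and Dam-Jra the EcR ends with the largest called rise had Dam libraries at 0, and no fold is given for them.

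The authors' deposited peak lists placed 8 Dam-Sd, 10 Yki-Dam and 8 Dam-Jra peaks in the EcR window, and joining overlapping peaks left 11 places. The widest, 54.4 to 62.6 kb into the span (2R 6142291 to 6150467), appeared in all 3 lists. Its ends summed to 2788, 2717 and 1414 CPM in Dam-Sd, against 330, 365 and 174 CPM in Dam Set 1. Yki-Dam had 1771, 1780 and 1746 CPM there, against 572, 392 and 480 CPM in Dam Set 2. Dam-Jra had 1485, 1363 and 1439 CPM, against 710, 723 and 756 CPM in Dam Set 3. No fusion library overlapped its Dam libraries at this place. The authors listed the place for these same fusions, so this is a description and supports nothing. Several EcR peaks lie over small genes inside the span, so they cannot be given to EcR alone: the tRNA genes tRNA:Arg-ACG-1-1, tRNA:Lys-CTT-1-1, tRNA:Asn-GTT-1-2 and tRNA:Lys-CTT-1-4, the non-coding RNA gene lncRNA:CR43904 and the protein-coding gene CG14589. The peak with the largest authors' fold in the set, 39.1 in the authors' deposited table, was a Dam-Jra peak at 61.7 to 62.6 kb of EcR that rests on 2 ends.

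**Figure D3:**
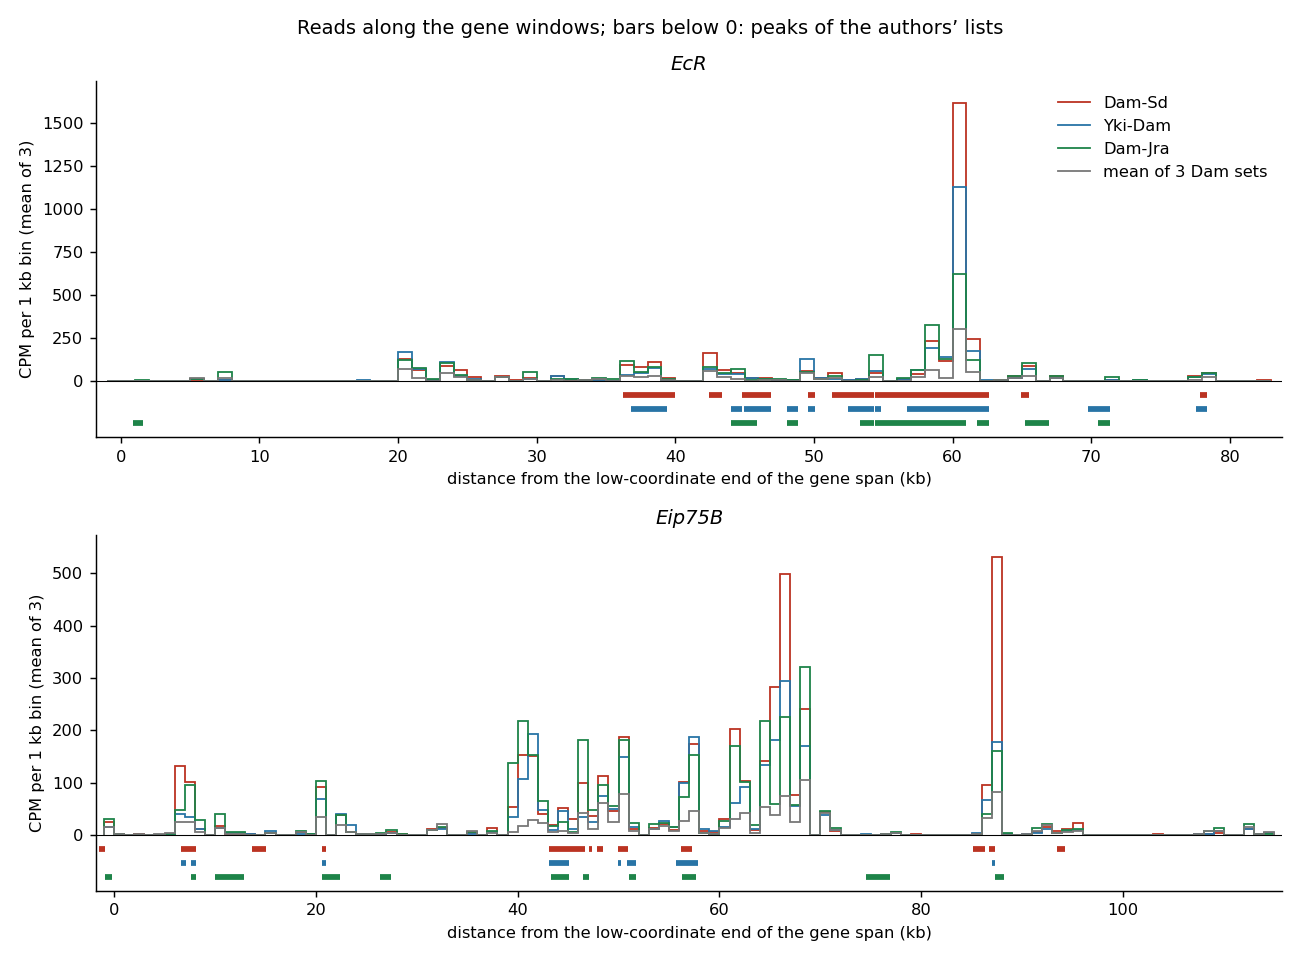
CPM per 1 kb bin (mean of 3 libraries) along the EcR and Eip75B windows for the 3 fusions and for the mean of the 3 Dam sets, with distance in kb from the low-coordinate end of the span on the x axis and bars under 0 for the authors' peaks. EcR has a single tall bin at 60 to 61 kb (1612 CPM in Dam-Sd), whereas Eip75B has many bins of like height and a Dam-Sd bin of 531 CPM at 87 to 88 kb.

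The gene usp (X, 2038798 to 2042311) encodes the fly RXR, the obligate partner of EcR, and is short, with 44 ends in its window. The window held 32.6, 27.6 and 33.2 CPM in Dam-Sd, against 46.1, 45.2 and 38.8 CPM in Dam Set 1. It held 33.9, 31.6 and 34.7 CPM in Yki-Dam, against 46.0, 27.3 and 33.8 CPM in Dam Set 2, and 45.6, 53.8 and 51.8 CPM in Dam-Jra, against 51.1, 40.9 and 55.8 CPM in Dam Set 3. Dam-Sd lay under its controls without overlap, and the other fusions overlapped theirs. In Dam-Sd usp was called lower (log2 −0.48 ± 0.19 SE, adjusted p = 0.040, edgeR), but with the replicate number as a block the adjusted p was 0.054 (log2 −0.47), and the call was also lost with DESeq2 size factors (−0.32). It was lost too when Dam-Sd replicate 1 or 2 or Dam Set 1 replicate 1 or 2 was left out (−0.40 to −0.51). The log2 fold changes in Yki-Dam, −0.10 ± 0.19, and in Dam-Jra over the mean of the 3 Dam sets, 0.25 ± 0.15, did not pass. Over Dam Set 3 alone the Dam-Jra value was 0.03. Without Dam Set 2 replicate 1, however, usp was called higher in Dam-Jra over that mean (0.32, adjusted p = 0.040, edgeR). The flanks weigh on this window: the bin before the span held 17.8 ± 0.67 CPM in Dam-Sd, against 18.4 ± 2.10 CPM in Dam Set 1, while the first bin of the span held 5.14 ± 1.18 CPM, against 12.8 ± 2.47 CPM. Over the span alone the Dam-Sd log2 fold change was −1.28 (adjusted p = 0.0020, edgeR), and that of Dam-Jra was −0.41, of opposite sign to the window value and not called. No authors' peak lay in the usp window, which falls wholly inside the window of Actn, the alpha-actinin gene.

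The larval-state gene chinmo encodes a BTB zinc-finger repressor (2L, 1651258 to 1704682), and had the largest fold of the set against the controls used here. Against Dam Set 1, br exceeded it in Dam-Jra (log2 2.23 and 2.15). Its window held 2542, 2265 and 1078 CPM in Dam-Sd, against 380, 316 and 241 CPM in Dam Set 1. It held 2009, 1414 and 1659 CPM in Yki-Dam, against 378, 318 and 397 CPM in Dam Set 2. It held 1369, 1460 and 1318 CPM in Dam-Jra, against 500, 528 and 573 CPM in Dam Set 3. The lowest fusion library, Dam-Sd replicate 3, was still above the highest Dam library. The fold was 6.28 in Dam-Sd (log2 2.65 ± 0.28 SE, adjusted p = 3.29e-07), 4.65 in Yki-Dam (2.22 ± 0.27, 5.47e-06) and 3.52 in Dam-Jra (1.81 ± 0.20, 1.32e-07) by edgeR. The Dam-Jra fold is over the mean of the 3 Dam sets, and over Dam Set 3 alone it was 2.59. Only 124 windows had a higher fold in Dam-Sd and 86 in Yki-Dam, while 564 did in Dam-Jra. Without Dam-Sd replicate 3 the Dam-Sd log2 fold change was 2.94.

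Most chinmo reads came from a few 1 kb bins, at 16 to 18 kb and 36 to 38 kb into the span. The 5 highest 1 kb bins of 56 held 94.6% ± 1.88 of its reads in Dam-Sd, 89.9% ± 1.56 in Yki-Dam, and 88.0% ± 0.40 for Dam-Jra (SD, n = 3), against 71.9% ± 8.11, 75.4% ± 7.43 and 81.1% ± 1.36 in Dam Sets 1, 2 and 3. The highest bin, 17 to 18 kb into the span, held 955 ± 347, 633 ± 192 and 581 ± 29.5 CPM in Dam-Sd, Yki-Dam and Dam-Jra, against 112 ± 48.6, 136 ± 19.4 and 218 ± 15.0 CPM in the Dam sets. A pair of neighbouring places of the authors' peaks lies at and beside it, 2L 1666834 to 1668294 and 2L 1668665 to 1671936, and both were in all 3 lists. The first holds a gene start that the authors list, at 2L 1667847, inside the chinmo span. At the second, Dam-Sd libraries had 1125, 1093 and 552 CPM, against 126, 130 and 79.8 CPM in Dam Set 1. Yki-Dam libraries had 844, 452 and 583 CPM, against 152, 116 and 156 CPM in Dam Set 2. Dam-Jra libraries had 598, 640 and 577 CPM, against 224, 215 and 241 CPM in Dam Set 3. No library of a fusion overlapped those of its Dam set here, which is again a description of a place listed for these fusions. In the authors' deposited tables the peak over the first place had a fold of 6.45 for Dam-Sd, 11.5 for Yki-Dam and 3.09 for Dam-Jra.

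A further chinmo signal carried no listed peak. The bin at 37 to 38 kb held 174 ± 69.6 CPM in Dam-Sd, 286 ± 18.0 in Yki-Dam, and 234 ± 21.8 for Dam-Jra, against 23.9 ± 5.88, 34.7 ± 6.15 and 72.0 ± 18.7 CPM in Dam Sets 1, 2 and 3. The lists hold only peaks with a gene start within 5 kb, and whether this bears on the missing peak was not tested. Peaks at the low end of the chinmo span were small: at 2L 1649739 to 1650385 the summed ends averaged 4.01 CPM in Dam-Sd and 4.29 CPM in Yki-Dam, against 1.29 CPM in Dam Set 1 and 1.38 CPM in Dam Set 2.

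**Figure D4:**
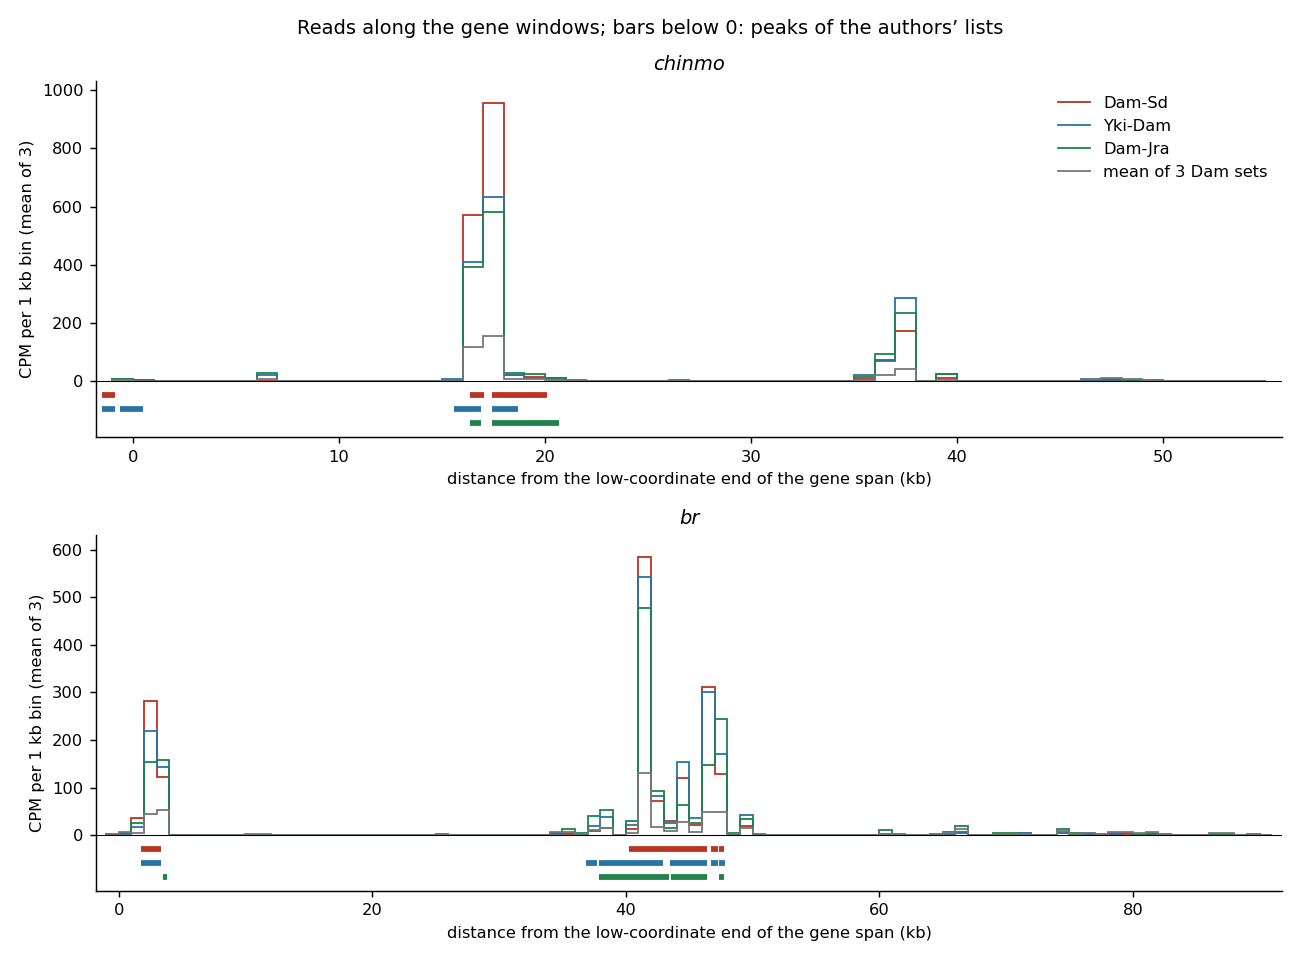
CPM per 1 kb bin (mean of 3 libraries) along the chinmo and br windows for the 3 fusions and for the mean of the 3 Dam sets, with distance in kb from the low-coordinate end of the span on the x axis and bars under 0 for the authors' peaks. In chinmo 2 adjoining bins at 16 to 18 kb hold most reads, with a smaller group at 37 to 38 kb; in br the reads fall at 2 to 4 kb and 41 to 48 kb.

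The pupal-state gene br (X, 1575132 to 1664869) encodes BTB zinc-finger factors of several isoforms. Its window held 2514, 1908 and 1270 CPM in Dam-Sd, against 405, 337 and 249 CPM in Dam Set 1. It held 2387, 1637 and 2053 CPM in Yki-Dam, against 644, 399 and 482 CPM in Dam Set 2, and 1544, 1585 and 1520 CPM in Dam-Jra, against 641, 661 and 689 CPM in Dam Set 3. Fusion and Dam libraries did not overlap. The fold was 5.75 in Dam-Sd (log2 2.52 ± 0.27 SE, adjusted p = 4.06e-07), 3.98 in Yki-Dam (1.99 ± 0.27, 1.19e-05) and 3.22 in Dam-Jra (1.69 ± 0.19, 2.69e-07) by edgeR. The Dam-Jra fold is over the mean of the 3 Dam sets, and over Dam Set 3 alone it was 2.33. Without Dam-Sd replicate 3 the Dam-Sd log2 fold change was 2.74. The br window lies wholly inside that of Mur2B, so their reads cannot be told apart.

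The authors listed these peaks for the same fusions, so a higher share of fusion reads inside them is a description and supports nothing. The 7 br places held 18.4% of the window's ends but 94.1% ± 2.81 of its reads in Dam-Sd, 93.3% ± 0.78 in Yki-Dam, and 89.1% ± 0.86 for Dam-Jra, against 59.4% ± 10.5, 74.3% ± 3.86 and 77.7% ± 0.75 in Dam Sets 1, 2 and 3. Outside the places the window held 97.9 ± 17.4 CPM in Dam-Sd, against 142 ± 3.99 CPM in Dam Set 1, and 125 ± 9.93 CPM in Yki-Dam, against 145 ± 12.4 CPM in Dam Set 2. Dam-Jra had 185 ± 15.3 CPM outside, against 169 ± 1.25 CPM in Dam Set 3. The widest place, X 1615417 to 1621554, was in all 3 lists and gave 1127, 903 and 581 CPM in Dam-Sd, against 168, 129 and 63.4 CPM in Dam Set 1. Yki-Dam gave 1111, 712 and 872 CPM there, against 231, 138 and 196 CPM in Dam Set 2. In Dam-Jra it gave 711, 774 and 715 CPM, against 279, 279 and 290 CPM in Dam Set 3. The place at X 1613005 to 1615381 was in the Yki-Dam and Dam-Jra lists only, with means of 57.8 ± 20.1 CPM in Yki-Dam, and 93.3 ± 3.68 CPM for Dam-Jra, against 19.8 ± 4.28 CPM in Dam Set 2 and 42.4 ± 6 CPM in Dam Set 3, and 24.0 ± 4.14 CPM in Dam-Sd, against 10.3 ± 3.21 CPM in Dam Set 1. Differences between fusions at single places were not tested.

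Eip93F, whose product belongs to the Pipsqueak family and directs adult fate at metamorphosis (3R, 21949114 to 22014539), was the low member. It had 1.35 ± 0.32 CPM per kb in Dam-Sd, a level under which only 20.9% of windows fell, and 1.34 ± 0.31 CPM per kb in Dam Set 1. Its window held 69.2, 91.8 and 112 CPM in Dam-Sd, against 66.7, 107 and 97.0 CPM in Dam Set 1. It held 68.0, 89.2 and 91.1 CPM in Yki-Dam, against 116, 152 and 126 CPM in Dam Set 2. It held 45.2, 36.1 and 40.2 CPM in Dam-Jra, against 73.2, 63.0 and 52.5 CPM in Dam Set 3. Dam-Sd overlapped its controls, while Yki-Dam and Dam-Jra lay under theirs. The log2 fold change was 0.02 ± 0.21 SE in Dam-Sd, not called. It was called lower in Yki-Dam (−0.66 ± 0.21, adjusted p = 0.016) and in Dam-Jra (−1.16 ± 0.19, 2.18e-05) by edgeR. The Dam-Jra value is over the mean of the 3 Dam sets, and over Dam Set 3 alone it was −0.63. The Yki-Dam call was lost without Yki-Dam replicate 1 (−0.54), without Dam Set 2 replicate 2 (−0.54) and against the mean of the 3 Dam sets (−0.13).

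A single bin of Eip93F differed widely between groups. At 60 to 61 kb into the span the reads were 20.8 ± 17.5 CPM in Dam-Sd, 24.0 ± 5.14 in Yki-Dam, and 0.68 ± 0.11 for Dam-Jra, against 16.9 ± 15.9 CPM in Dam Set 1, 54.9 ± 9.66 CPM in Dam Set 2 and 3.40 ± 0.18 CPM in Dam Set 3. Dam Set 2 was the high group there, and Dam-Jra and Dam Set 3 the low ones. No authors' peak lay in the Eip93F window, in lists that hold only peaks with a gene start within 5 kb. No Eip93F end was called higher by edgeR in Dam-Sd or Yki-Dam, and 4 of 106 tested ends (3.77%) were in Dam-Jra, where 20.2% of all ends were. Those called lower in Dam-Sd, Yki-Dam and Dam-Jra were 6 (5.66%), 9 (8.49%) and 29 (27.4%), where 15.6%, 7.16% and 21.6% of all ends were.

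Eip74EF (3L, 17558672 to 17619325), an early gene that encodes ETS-domain factors, had the smallest fold of the 5 raised windows against the controls used here. Against Dam Set 3 alone, EcR was lower in Dam-Jra (log2 0.87, and 0.96 at Eip74EF). The Eip74EF window held 892, 633 and 588 CPM in Dam-Sd, against 295, 211 and 231 CPM in Dam Set 1. It held 929, 576 and 696 CPM in Yki-Dam, against 341, 275 and 307 CPM in Dam Set 2, and 691, 692 and 684 CPM in Dam-Jra, against 349, 357 and 354 CPM in Dam Set 3. The lowest fusion library, Yki-Dam replicate 2, was above every Dam library. The fold was 2.86 in Dam-Sd (log2 1.52 ± 0.21 SE, adjusted p = 5.88e-06), 2.38 in Yki-Dam (1.25 ± 0.21, 1.15e-04) and 2.30 in Dam-Jra (1.20 ± 0.16, 1.69e-06) by edgeR. The Dam-Jra fold is over the mean of the 3 Dam sets, and over Dam Set 3 alone it was 1.95. Without Dam-Sd replicate 3 the Dam-Sd log2 fold change was 1.63. The place at 18.8 to 21.4 kb (3L 17577472 to 17580035), in all 3 lists, was high in Dam-Jra, with 357, 392 and 373 CPM, against 117, 150 and 155 CPM in Dam Set 3. Yki-Dam had 380, 194 and 263 CPM there, against 85.1, 55.3 and 94.0 CPM in Dam Set 2, and Dam-Sd had 231, 150 and 75.3 CPM, against 61.0, 32.7 and 21.9 CPM in Dam Set 1. Reads of Dam-Sd in Eip74EF lay mostly elsewhere: 36.0% ± 8.54 fell in the authors' places in Dam-Sd, 53.0% ± 3.87 in Yki-Dam, and 61.2% ± 3.03 for Dam-Jra, against 24.2% ± 5.22, 36.6% ± 3.55 and 43.6% ± 4.58 in Dam Sets 1, 2 and 3.

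Eip75B (3L, 17950953 to 18064696) encodes nuclear receptors that bind haem and is the longest of the set, with 594 ends in its window. The window held 5618, 4481 and 2961 CPM in Dam-Sd, against 1124, 978 and 790 CPM in Dam Set 1. It held 2443, 3359 and 3446 CPM in Yki-Dam, against 980, 1037 and 1069 CPM in Dam Set 2. It held 3332, 3247 and 3199 CPM in Dam-Jra, against 1590, 1561 and 1517 CPM in Dam Set 3. Every fusion library was above every Dam library, and the lowest was Yki-Dam replicate 1. The fold was 4.52 in Dam-Sd (log2 2.18 ± 0.26 SE, adjusted p = 1.09e-06), 3.00 in Yki-Dam (1.58 ± 0.25, 7.10e-05) and 2.82 in Dam-Jra (1.50 ± 0.19, 8.90e-07) by edgeR. The Dam-Jra fold is over the mean of the 3 Dam sets, and over Dam Set 3 alone it was 2.09. Without Dam-Sd replicate 3 the Dam-Sd log2 fold change was 2.39.

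Its reads were spread. The 5 highest of 116 bins held 41.8% ± 2.03 in Dam-Sd, 41.3% ± 2.43 in Yki-Dam, and 33.0% ± 0.18 for Dam-Jra, against 26.1% ± 3.26, 31.8% ± 5.47 and 33.7% ± 0.50 in Dam Sets 1, 2 and 3. Peaks of the authors numbered 14 in Dam-Sd, 8 in Yki-Dam, and 11 for Dam-Jra, in 16 places, of which 6 were in all 3 lists. One of these 6, at 3L 18037716 to 18039114 over and beside lncRNA:CR45922, stood out in Dam-Sd. It had 630, 652 and 596 CPM in Dam-Sd, against 77.2, 87.6 and 33.3 CPM in Dam Set 1. The same place had 89.5, 329 and 308 CPM in Yki-Dam, against 124, 135 and 114 CPM in Dam Set 2, and 219, 190 and 204 CPM in Dam-Jra, against 142, 149 and 173 CPM in Dam Set 3. Here Dam-Sd replicate 3 was close to the other Dam-Sd libraries, while Yki-Dam replicate 1 lay under its controls. The highest bin of Yki-Dam lay elsewhere, at 66 to 67 kb, with 295 ± 217 CPM. That of Dam-Jra, at 68 to 69 kb, held 321 ± 19.8 CPM, against 202 ± 9.63 CPM in Dam Set 3. Neither bin held a listed peak. A lower bin, at 39 to 40 kb, held 138 ± 9.23 CPM in Dam-Jra, against 9.25 ± 1.67 CPM in Dam Set 3. Dam-Sd had 54.4 ± 18.7 CPM there, against 4.65 ± 0.20 CPM in Dam Set 1. The controls differ, and differences between fusions at single bins were not tested. Near this bin, the end at 3L 17991087 on the plus strand had 3.31, 3.78 and 3.55 CPM in Dam-Jra, against 0 to 0.61 CPM over the 9 Dam libraries, a 39.5-fold rise (log2 5.30 ± 0.44 SE, adjusted p = 8.94e-09, edgeR over all ends).

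Most ends called higher lay in the 5 raised genes, but so did most tested ends: Eip93F held 106 and usp 20 of 1363. The 5 windows were called higher on sums of these same ends, so this is a description. Of the 2311 ends, 1363 passed the filter on low counts, and 395 of these (29.0%) were called higher in Dam-Sd, where 13% of all tested ends were. In Yki-Dam 311 (22.8%) were called, against 8.95% of all ends, and in Dam-Jra 546 (40.1%), against 20.2%. By gene, the share of EcR ends called higher was 37.8% in Dam-Sd, 32.9% in Yki-Dam, and 51.4% for Dam-Jra. The shares of Eip75B were 37.8%, 25.9% and 45.6%, those of chinmo 24.8%, 27.1% and 42.9%, those of br 27.1%, 24.7% and 39.3%, and those of Eip74EF 19.9%, 8.70% and 29.8%. In usp, 0 of 20 tested ends were called higher in Dam-Sd and in Yki-Dam, and 6 in Dam-Jra. The chinmo ends in Dam-Sd had a median log2 fold change of 0.00 although the window rose by 2.65, since few ends carried the reads. Ends called lower numbered 95 in Dam-Sd, 43 in Yki-Dam and 87 with Dam-Jra (6.97%, 3.15% and 6.38% of those tested), against 15.6%, 7.16% and 21.6% of all ends. With Dam Set 3 as the control of Dam-Jra, 26 (1.91%) were, against 7.71% of all ends. Neighbouring ends share fragments and are no replicates of each other.

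**Figure D5:**
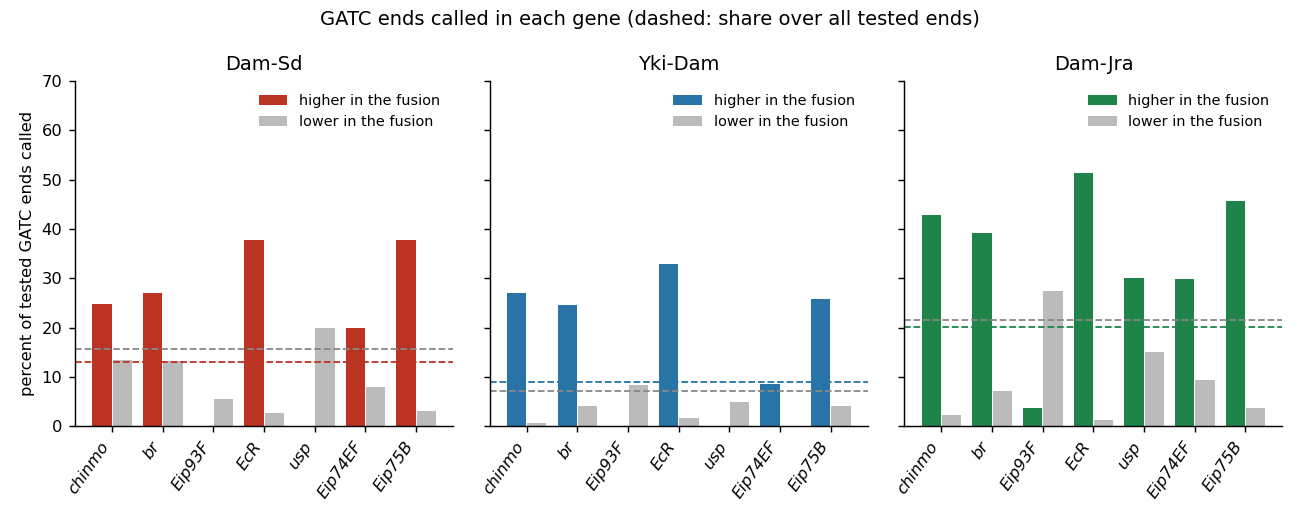
Percent of tested GATC ends called higher (coloured) and lower (grey) in each gene for the 3 fusions, with dashed lines for the shares over all tested ends. In EcR, Eip75B, chinmo and br the coloured bars lie above their dashed lines (13%, 8.95% and 20.2%); Eip93F and usp have none in Dam-Sd and Yki-Dam.

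Dam-Sd and Yki-Dam marked many of the same ends. Of member ends called higher, 237 were called in both, which is 60% of the Dam-Sd ends and 76.2% of the Yki-Dam ends. Over all ends the shares were 48.7% and 70.8%. With Dam Set 3 as its control, so that no Dam library is shared, Dam-Jra had 250 member ends called higher, 18.3% where 9.76% of all ends were. Of these 151 were also called in Dam-Sd, 60.4% of the Dam-Jra ends and 38.2% of the Dam-Sd ends, beside 47.0% and 35.2% over all ends. Likewise 151 were also called in Yki-Dam, 60.4% of the Dam-Jra ends and 48.6% of the Yki-Dam ends, beside 45.2% and 49.3% over all ends. The excess over all ends was not tested.

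The authors' deposited lists held 32 Dam-Sd, 32 Yki-Dam and 29 Dam-Jra peaks in the 7 windows, and every peak touched the window of a raised gene. Of these peaks, 30, 30 and 27 overlapped the gene spans and the rest touched only the flanks. Joined, the peaks formed 44 places, of which 14 were in all 3 lists, 14 in 2 lists and 16 in 1 list. The places in all 3 lists were 6 in Eip75B, 3 in EcR, 2 in chinmo, 2 in br and 1 in Eip74EF. A peak lay in 26.2% of all windows in the Dam-Sd list, 20.7% in the Yki-Dam list and 26.6% in the Dam-Jra list, and in 60.1%, 56.5% and 58.5% of windows with spans of 50 kb or more. The median authors' log2 fold change of the peaks ranged over these genes from 1.42 in Eip74EF to 2.36 in br for Dam-Sd, from 1.39 in Eip75B to 2.37 in br for Yki-Dam and from 1.57 in chinmo to 2.52 in Eip74EF for Dam-Jra, in the authors' deposited tables.

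Differences between fusions were tested as differences of their fold changes over Dam. Dam-Jra had smaller log2 fold changes than Dam-Sd at chinmo (−0.84 ± 0.30 SE, adjusted p = 0.033), br (−0.84 ± 0.30, 0.030), EcR (−0.93 ± 0.29, 0.016) and Eip93F (−1.18 ± 0.25, 0.0011), and a larger one at usp (0.73 ± 0.22, 0.014) by edgeR, where 21% and 19.7% of all windows were called in these directions. At Eip75B (−0.68 ± 0.29) and Eip74EF (−0.31 ± 0.24) the difference did not pass. The control decides part of this: with Dam Set 3 as the control of Dam-Jra, chinmo (−1.28), br (−1.30), EcR (−1.41) and Eip75B (−1.11) were called, where 15.3% of all windows were called in this direction. With the fusions set directly against each other only Eip93F (−1.17) and usp (0.70) were, where 24.1% and 22.5% of all windows were called in these directions. With the pairs of Dam-Sd and Dam Set 1 as blocks and Dam Set 3 as control, chinmo, br, EcR, Eip75B, Eip74EF and Eip93F were called lower (−1.35 to −0.55), where 25.8% of all windows were called lower and 20.3% higher. DESeq2 called the same 5 as edgeR and Eip75B as well (−0.81). In edgeR's fit without pairs, leaving out Dam-Sd replicate 2 left Eip93F as the only call, and leaving out Dam-Sd replicate 3 gave 6 calls. Leaving out Dam-Sd replicate 1 or any 1 Dam-Jra library gave 3, with chinmo and br no longer called.

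Dam-Sd minus Yki-Dam gave no call among the 7 windows by edgeR in the fit without pairs, where 1.4% of all windows were called higher and 2.2% lower, and 1 (Eip93F) had an unadjusted p under 0.05. DESeq2 gave no call either. The difference was 0.43 ± 0.37 at chinmo, 0.53 ± 0.36 at br, 0.54 ± 0.36 at EcR, 0.27 ± 0.29 at Eip74EF, 0.59 ± 0.35 at Eip75B, 0.67 ± 0.29 at Eip93F and −0.38 ± 0.27 at usp (log2 ± SE). Equal replicate numbers were taken to pair Dam-Sd with Dam Set 1 and Yki-Dam with Dam Set 2, a pairing read from these data and not stated in the titles. With these pairs as blocks 4 windows were called higher in Dam-Sd by edgeR: br (0.49 ± 0.13, adjusted p = 0.013), Eip75B (0.57 ± 0.15, 0.010), EcR (0.48 ± 0.15, 0.031) and Eip93F (0.68 ± 0.19, 0.018), where 11.8% of all windows were called higher and 11.7% lower. The within-pair log2 ratios of br were 2.63, 2.50 and 2.35 in Dam-Sd and 1.89, 2.04 and 2.09 in Yki-Dam, without overlap. These differences depend on the controls. With Dam-Sd and Yki-Dam set directly against each other, without pairs, none of the 7 windows was called by edgeR. The values were then −0.09 at br, 0.50 at Eip75B, 0.27 at EcR and 0.14 at Eip93F. Of all 14090 windows, 1239 were called higher and 932 lower in that comparison. At chinmo (0.37 ± 0.17), Eip74EF (0.28 ± 0.14) and usp (−0.40 ± 0.23) the paired difference did not pass. Without the block the count depends on a single library: without Dam-Sd replicate 3, EcR (0.81, adjusted p = 0.015) and Eip75B (0.81, 0.028) were called higher in Dam-Sd by edgeR. Dam-Jra minus Yki-Dam also gave no call, where 12.1% of all windows were called higher and 12.7% lower, with differences from −0.50 ± 0.25 at Eip93F to 0.35 ± 0.22 at usp, and 0 had an unadjusted p under 0.05. DESeq2 gave no call either. With the pairs of Yki-Dam and Dam Set 2 as blocks and Dam Set 3 as the control of Dam-Jra, chinmo (−0.84), br (−0.78), EcR (−0.86) and Eip75B (−0.50) were called lower, where 16.1% of all windows were called lower and 10.5% higher. Without the block the same control gave no call by edgeR, with values of −0.84, −0.77, −0.86 and −0.52, where 4.88% were called higher and 4.07% lower. With the fusions set directly against each other, Eip93F (−1.03) and usp (0.59) were called, where 23% and 21.2% of all windows were called in these directions.

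The Dam controls themselves were not alike at these genes. Dam Set 3 was called above Dam Set 1 at chinmo (log2 0.77 ± 0.26 SE, adjusted p = 0.035), br (1.01 ± 0.26, 0.0093), EcR (0.85 ± 0.25, 0.019) and Eip75B (0.69 ± 0.25, 0.043) by edgeR, where 16.5% of all windows were (and 12.2% below it). It was called under Dam Set 2 at Eip93F (−1.06 ± 0.21, adjusted p = 0.0013), where 16% of all windows were (and 18.9% above it). Dam Set 1 and Dam Set 2 gave no call at the 7 windows by edgeR, where 5.81% and 5.61% of all windows were called, although br (−0.62 ± 0.26) and Eip93F (−0.54 ± 0.20) had an unadjusted p of 0.025 and 0.016, and 1 window was called with DESeq2 size factors. Without Dam Set 1 replicate 3, none of the Dam Set 3 against Dam Set 1 differences was called, without Dam Set 1 replicate 1 there were 6, without Dam Set 1 replicate 2 there were 2, and without any Dam Set 3 library there was 1. Against Dam Set 3 alone the Dam-Jra folds were smaller but still called, at 1.37 ± 0.27 for chinmo, 1.22 ± 0.26 for br, 0.87 ± 0.25 for EcR, 1.07 ± 0.25 for Eip75B, 0.96 ± 0.21 for Eip74EF and −0.63 ± 0.22 for Eip93F, where 23.3% of all windows were called higher and 27% lower. Against Dam Set 1 alone they were larger at the raised genes, at 2.15 ± 0.27 for chinmo, 2.23 ± 0.27 for br, 1.72 ± 0.26 for EcR, 1.76 ± 0.26 for Eip75B and 1.49 ± 0.21 for Eip74EF, with −1.16 ± 0.22 for Eip93F, where 31.7% and 37.1% were. The br fold of Dam-Jra was thus 4.69 against Dam Set 1 and 2.33 against Dam Set 3.

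Counts over the other lists are read beside the shares of all windows, 26.1%, 22% and 32.6% called higher and 30.3%, 20.3% and 36.3% lower in Dam-Sd, Yki-Dam and Dam-Jra, and no list was tested against them. Of 28 ecdysone-response genes, 17 were called higher and 2 lower in Dam-Sd, 16 and 3 in Yki-Dam, and 16 and 3 for Dam-Jra, with median log2 fold changes of 1.02, 0.86 and 0.60. The circadian bZIP gene vri rose in every comparison (2.29 ± 0.21, 1.89 ± 0.21 and 1.97 ± 0.15 SE). The nuclear receptor gene ftz-f1, which sets prepupal competence, rose in Dam-Sd (2.02 ± 0.24), Yki-Dam (1.51 ± 0.23) and Dam-Jra (1.30 ± 0.18). The caspase gene Dronc rose in Dam-Jra (1.69 ± 0.14) and Yki-Dam (0.60 ± 0.20) and was not called in Dam-Sd (0.24 ± 0.19). ImpL1 was called in Yki-Dam (1.52 ± 0.19), but over its span without flanks the value was 0.45 and not called. Its window was also called higher in Dam-Sd (1.15 ± 0.19) and was not called in Dam-Jra (0.12 ± 0.15).

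Among 22 temporal and heterochronic genes, 15 were called higher and 1 lower in Dam-Sd, 15 and 1 in Yki-Dam, and 16 and 3 for Dam-Jra, with medians of 1.44, 0.98 and 0.94. The genes for the RNA-binding proteins Imp, an early neural stem cell factor, and lin-28 were high. In Dam-Sd, Yki-Dam and Dam-Jra, Imp rose by 2.45 ± 0.24, 2.15 ± 0.24 and 2.00 ± 0.17, and lin-28 by 2.96 ± 0.25, 2.10 ± 0.24 and 1.79 ± 0.18. Kr-h1, the juvenile hormone response gene that holds back metamorphosis, rose in Dam-Jra (2.04 ± 0.17), Dam-Sd (1.63 ± 0.23) and Yki-Dam (1.65 ± 0.23).

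Receptor partners and cofactors split: 5 of 10 were called higher and 4 lower in Dam-Sd, 4 and 2 in Yki-Dam, and 5 and 1 for Dam-Jra. The coactivator gene tai rose in each (2.51 ± 0.27, 1.74 ± 0.27 and 1.91 ± 0.19), as did the corepressor gene Smr (1.75 ± 0.26, 1.92 ± 0.26 and 1.23 ± 0.19). The histone methyltransferase gene trr fell in Dam-Sd (−1.67 ± 0.21) and Yki-Dam (−0.54 ± 0.20) and was not called in Dam-Jra (−0.24 ± 0.16). The histone demethylase gene Utx fell in Dam-Jra (−2.39 ± 0.31), Dam-Sd (−0.84 ± 0.28) and Yki-Dam (−0.83 ± 0.25). Of 14 genes for ecdysone synthesis, uptake and breakdown, 7 were called higher and 2 lower in Dam-Sd, 5 and 1 in Yki-Dam, and 6 and 6 for Dam-Jra, with medians of 0.45, 0.02 and −0.18. They included E23, an ABC transporter gene (2.42 ± 0.29 in Dam-Sd, 1.60 ± 0.29 in Yki-Dam, 1.57 ± 0.21 in Dam-Jra), and the hydroxylase gene shd (1.86 ± 0.23, 0.88 ± 0.22 and 0.84 ± 0.17). The P450 gene phtm (1.14 ± 0.21, 1.40 ± 0.21 and 1.12 ± 0.17) and the zinc-finger gene mld (1.56 ± 0.19, 1.41 ± 0.19 and 0.90 ± 0.15) also rose in these fusions. For phtm in Dam-Jra, library size only gave 0.20 and no call. All named values passed edgeR's adjusted test over all windows unless stated.

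Some genes share ends with the members. Mur2B, whose window contains that of br and takes 67.3% of its ends from it, was called higher (log2 2.32 ± 0.27, 1.91 ± 0.27 and 1.65 ± 0.20 SE in Dam-Sd, Yki-Dam and Dam-Jra), while dor, beside br, was called lower (−1.69 ± 0.27, −1.07 ± 0.26 and −0.56 ± 0.21). Beside Eip93F, Theg was called lower in all 3 (−1.14 ± 0.32, −0.81 ± 0.30 and −1.83 ± 0.32), and Idh3b in Dam-Sd (−1.08 ± 0.29) and Dam-Jra (−1.66 ± 0.28). The windows of CG14589, CG32192 and CG42393 lie wholly inside a member window, so their reads are also that member's. Inside EcR, CG14589 was called higher in all 3 (1.25 ± 0.21, 1.17 ± 0.20 and 0.42 ± 0.16). Near usp, CG4313 was called higher in all 3 (1.03 ± 0.21, 0.83 ± 0.22 and 2.05 ± 0.16), and Actn (0.53 ± 0.16) and CG4325 (0.47 ± 0.14) in Dam-Jra. Around Eip74EF, CycT was called lower in Dam-Sd (−0.77 ± 0.18) and Dam-Jra (−0.42 ± 0.15), and Vps60 higher in Yki-Dam (0.74 ± 0.28) and Dam-Jra (1.76 ± 0.20). Inside Eip75B, CG42393 was called higher in Dam-Sd (0.77 ± 0.32) and CG32192 was not called in any. Beside chinmo, cpb was called lower in Dam-Jra (−0.73 ± 0.30).

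Levels per length put the genes in an order. In Dam-Sd, EcR had 48.8 ± 17.4 CPM per kb, Eip75B 37.6 ± 11.5, chinmo 35.4 ± 14.0, br 20.7 ± 6.78, Eip74EF 11.2 ± 2.61, usp 5.64 ± 0.56 and Eip93F 1.35 ± 0.32 (SD, n = 3), and from EcR down to Eip74EF each gene overlapped its neighbour over the 3 libraries. Yki-Dam gave 40.5 ± 1.49 for EcR, 30.6 ± 5.39 for chinmo, 26.6 ± 4.80 for Eip75B, 22.1 ± 4.09 for br, 11.7 ± 2.87 for Eip74EF, 6.06 ± 0.30 for usp and 1.23 ± 0.19 for Eip93F. Dam-Jra gave 33.1 ± 1.41 for EcR, 28.2 ± 0.58 for Eip75B, 24.9 ± 1.30 for chinmo, 16.9 ± 0.36 for br, 11 ± 0.07 for Eip74EF, 9.14 ± 0.77 for usp and 0.60 ± 0.07 for Eip93F. In Yki-Dam the libraries of chinmo, Eip75B and br overlapped, and the other neighbours in the order did not. In Dam-Jra no neighbours overlapped. The Dam sets kept EcR first, at 10.1 ± 1.72, 12.2 ± 0.80 and 18.1 ± 0.27 CPM per kb in Sets 1, 2 and 3, and Eip93F last, at 1.34 ± 0.31, 1.94 ± 0.28 and 0.93 ± 0.15. In Dam Set 1 usp (7.87 ± 0.72) lay above chinmo (5.64 ± 1.25), Eip74EF (3.92 ± 0.70) and br (3.60 ± 0.85). The median over all windows was 3.90, 4.13 and 4.42 CPM per kb in Dam-Sd, Yki-Dam and Dam-Jra, and 4.98, 4.51 and 4.85 in Dam Sets 1, 2 and 3. The 6 long members hold 3.13 to 5.56 ends per kb, below the median of 6.99 over all windows, and usp holds 7.98.

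Over the 18 libraries, likeness was taken as the root mean square distance between log2(CPM + 1) profiles, each centred on its own mean, among windows that share no end. The nearest windows to chinmo were nkd (0.12) and boi (0.12), where the median over all windows was 1.26. For br they were Ca-beta (0.13) and brat (0.13), for EcR pwn (0.11) and grh (0.11), for Eip75B InR (0.10) and CrebA (0.12), and for Eip74EF CG6310 (0.14) and Lrt (0.15). Among the members themselves, EcR and Eip75B lay 0.17 apart and chinmo and br 0.20 apart. Eip93F had igl (0.18) and CG46301 (0.18) nearest, and usp had CG1271 (0.17) and SPARC (0.17). All profiles share the same 18 libraries, and the distances are given as a description, without a test.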

How the data were processed

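The authors deposited raw read counts per GATC end for all 18 libraries; Subread and featureCounts are named in the submitters' processing notes with genome build dm6 and no versions. They also deposited 1 peak list per fusion, each peak with its p-value and log2 fold change; edgeR and bedtools are named in the same notes, and how peaks were called and on which Dam libraries is not given in the sources used here.

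From the counts, ends were summed over each gene span plus 1 kb on both sides. Of these windows, 89.8% share ends with another. Windows and single ends were tested with edgeR 4.0.16 (R 4.3.3; quasi-likelihood, TMM scaling, edgeR's expression filter with a minimum count of 10, all 18 libraries as 6 groups, 12 residual degrees of freedom), with Benjamini-Hochberg adjustment. The reference library that edgeR picked for TMM was Dam-Sd replicate 3, the library that stands apart. Fits that leave out 1 library kept the windows and scaling factors of all 18. Dam-Sd was set against Dam Set 1 and Yki-Dam against Dam Set 2, as titled. The titles put Dam-Jra in Set 1 as well and give Set 3 no fusion, so Dam-Jra was set against the mean of the 3 Dam sets, with Dam Set 3 alone and Dam Set 1 alone as alternatives. Equal replicate numbers deviated together in Dam-Sd and Dam Set 1 (r = 0.361 to 0.573 over windows) and in Yki-Dam and Dam Set 2 (0.396 to 0.651). For unequal numbers r was −0.513 to 0.140 and −0.559 to 0.391. The titles state no pairing, so taking equal numbers as pairs is a reading of these same counts. Fits without pairs are the main ones, and fits with pair effects are given where they change a call. Alternatives were the scaling, its reference library, the filter, the flanks, ends in no other window, the control, the replicate block, each library left out and DESeq2 1.42.0. The edgeR fit without pairs was tried on simulated windows and ends, for Dam-Sd against Dam Set 1 and for Dam-Sd minus Yki-Dam. The fit with pair effects was tried on simulated windows for Dam-Sd minus Yki-Dam only. The other comparisons and alternatives were not simulated. A peak was given to every window it overlaps.

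Named in the text are the members, genes that share ends with them, the pair of windows with the smallest p in each list and comparison, the nearest pair of windows to each member by profile, and the ends or 1 kb bins with the largest rise. Other bins and places were chosen after their values were seen. Members and lists were chosen with earlier results of these data known. A planned search for sequence motifs was not run, and no sequence was used here.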

Additional observations from a re-analysis of the deposited data

Results flagged for a closer look

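For 5 genes the fold change over Dam differed between Dam-Jra and Dam-Sd by edgeR's test of the difference itself. Dam-Jra minus Dam-Sd was −0.84 on the log2 scale at chinmo, −0.84 at br, −0.93 at EcR, −1.18 at Eip93F and 0.73 at usp. The control differs between these fusions, the mean of the 3 Dam sets for Dam-Jra and Dam Set 1 for Dam-Sd, and without the replicate block no difference of the 5 was called under every control tried.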

How the results depend on the processing

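The 5 windows called higher stayed called higher in each fusion under every alternative that gave them a value. The settings that move other calls are as follows. Windows called over all genes went to 4966 of 7945 in Dam-Sd, 3619 of 5956 in Yki-Dam and 6104 of 9715 in Dam-Jra with ends in no other gene window, which gave no value for br and usp. In Yki-Dam they went to 10083 with library size only and to 3571 at an adjusted p below 0.01. Dam-Jra minus Dam-Sd gave 2 member calls in place of 5, and Dam-Jra minus Yki-Dam 2 in place of 0, with the mean of the 3 Dam sets for each fusion. Dam-Jra minus Yki-Dam gave 2 with library size only. Dam Set 1 minus Dam Set 2 gave 1 in place of 0 with DESeq2 size factors, with library size only and with another TMM reference. Dam Set 3 minus Dam Set 1 gave 2 in place of 4 with DESeq2 size factors, and Dam Set 3 minus Dam Set 2 gave 2 in place of 1 without flanks. The cause was not tested.

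With library size only, member ends called higher were 204 (395 as reported) in Dam-Sd and 278 (546) in Dam-Jra, and ends called lower 371 (95), 164 (43) and 347 (87) in Dam-Sd, Yki-Dam and Dam-Jra. At an adjusted p below 0.01, ends called lower were 35, 16 and 23, and Yki-Dam had 191 higher (311). Dam-Jra against Dam Set 3 had 250 higher and 26 lower, and Yki-Dam against the mean of the 3 Dam sets 80 lower. By the starts that the authors list, Dam-Jra had 19 member peaks in place of 29.

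The TMM reference was changed to Dam Set 3 replicate 3 after the data were seen. This moved the Yki-Dam folds of the 7 windows by up to 0.16 (chinmo to 2.07, Eip93F to −0.82) and changed no member call against Dam. It turned Dam-Jra minus Yki-Dam, not called, to 0.071 at Eip74EF and 0.039 at Eip75B. Other reversed signs were all of differences not called as reported: Eip93F in Dam-Sd (−1.01) and usp in Dam-Jra (−0.67) with library size only, usp in Dam-Jra (−0.41) and in Dam-Jra minus Yki-Dam (−0.23) without flanks, Dam-Sd minus Yki-Dam at br (−0.095) and Eip74EF (−0.059) and Dam-Jra minus Yki-Dam at Eip75B (0.080) with the mean of the 3 Dam sets for each fusion, Dam-Sd minus Yki-Dam at Eip74EF (−0.022) with library size only, and Dam-Jra minus Yki-Dam at Eip93F with Dam Set 3 (0.026, and 0.032 with the replicate block) and at Eip74EF with DESeq2 size factors (0.033) and with DESeq2's own test (0.032).

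Leaving out 1 library at a time gave 6593 to 8781 windows called in Dam-Sd, 4479 to 5625 in Yki-Dam and 8522 to 9915 in Dam-Jra. Member calls ran from 0 to 2 for Dam-Sd minus Yki-Dam, 1 to 6 for Dam-Jra minus Dam-Sd, 0 to 6 for Dam Set 3 minus Dam Set 1 and 1 to 2 for Dam Set 3 minus Dam Set 2; for differences between fusions only fusion libraries were left out. Ends called lower ran from 36 to 109 in Dam-Sd, 21 to 34 in Yki-Dam and 28 to 43 in Dam-Jra. Eip93F in Dam-Sd ran from −0.16 to 0.17, usp in Yki-Dam from −0.26 to 0.13, and Dam-Jra minus Yki-Dam from −0.19 to 0.16 at Eip74EF and from −0.23 to 0.00057 at Eip75B.

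With the replicate block, fitted on the libraries of each comparison, windows called were 7787 in Dam-Sd, 7805 in Yki-Dam and, with Dam Set 3 as control, 9881 in Dam-Jra, and no member call changed except usp in Dam-Sd (−0.47, adjusted p = 0.054). For differences between fusions the block was added after the data were seen, over all 18 libraries: it called 4 members in place of 0 for Dam-Sd minus Yki-Dam and, with Dam Set 3 as the control of Dam-Jra, 6 for Dam-Jra minus Dam-Sd and 4 in place of 0 for Dam-Jra minus Yki-Dam. No block was used with the mean of the 3 Dam sets, which crosses the pairs, and no library was left out of the blocked fits. Dam-Jra shares only numbers with Dam Set 3 (r = −0.139 to 0.115) and Dam Set 1 (−0.265 to −0.074).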
